A study of Saccharomyces cerevisiae with 4 samples.

Results

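The yeast cell wall genes described here encode glucan and chitin synthases, the transglycosidases that join and remodel these polymers, and glucanases and a chitinase that act in the wall. They were chosen by name, and the 10 members are FKS1, CHS3, GAS1, CRH1, UTR2, BGL2, EXG1, SCW4, SCW10 and CTS1. GEO's platform annotation named a spot for 9 of them, 1 spot each, among 6051 genes and unnamed spots in all, and GAS1 was not analysed here. Transcript levels were compared in Saccharomyces cerevisiae between cells carrying hsf1-R206S/F256S, with 2 arrays, and cells with HSF1 wt, with 2 arrays. All cells had been held at 39 °C for 15 min, so the comparison asks which of these transcripts differ between the alleles under heat, and it says nothing of induction by heat. HSF1 encodes the heat shock transcription factor, and the allele carries 2 amino acid changes. The sources used here give neither the strain background nor how the allele was introduced. The labels do not say whether replicates were separate cultures, so all p-values measure the spread between these arrays, which may be technical.

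The wall of budding yeast is a mesh of β-1,3-glucan to which β-1,6-glucan, chitin and mannoproteins are attached. A plasma membrane synthase spins out β-1,3-glucan under the control of the GTPase Rho1, and chitin is made by separate synthases, chiefly at the bud neck. Glucanosyltransferases and chitin transglycosylases then elongate, branch and cross-link the chains, and hydrolases loosen them where a bud grows or a daughter cell separates. Heat stresses this wall and activates the cell wall integrity pathway, which runs from surface sensors through Rho1, protein kinase C and the mitogen-activated protein kinase Slt2.

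Each array carried radioactively labelled cDNA of 1 sample, and the deposited values are spot intensities in arbitrary units with the background already subtracted. Median deposited intensity was 11.9 and 8.49 on mutant replicates 1 and 2, against 6.28 and 5.86 on wild-type replicates 1 and 2. The background limit of an array was set at 3 standard deviations of its noise, and it was exceeded by 61.2% and 41.5% of spots on the mutant arrays and 24.9% to 40.6% on the wild-type arrays. This difference in brightness runs with the strains, and its part in the results below was not tested. The spot for HSF1 itself read 462 and 429 deposited units on the mutant arrays, against 33.2 and -7.56 on the wild-type arrays. A spot level cannot show the amino acid changes themselves. The log2 difference of HSF1 was 6.52 (SE 1.98, limma adjusted p = 0.381), and it ran from 3.93 to 9.10 over the alternatives. Its negative value on wild-type replicate 2 was set to 0, so the size of the difference rests on that floor. It was 3.93 with that array or negative values left out, and 9.10 with wild-type replicate 1 left out. HSP82 and SSA4, Hsp90 and Hsp70 chaperone genes that Hsf1 drives, gave log2 differences of -3.27 (SE 0.40, limma adjusted p = 0.277) and -3.22 (SE 0.52, limma adjusted p = 0.280), or -3.88 and -4.11 with median scaling.

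Among the wall enzymes, UTR2 stood highest in the mutant relative to the wild type, and it alone met the fold rule upward. That rule asks for at least a 2-fold difference of means with no overlap between the strains' arrays, and it is no test. SCW10 and EXG1 met it downward, but neither lay above background on any array. So 1 of 9 members met the rule upward, where 13.5% of all genes did, and 2 of 9 met it downward, where 12.8% of all genes did. The upward share is near that of all genes, and both downward members lie below background. With limma, fitted over all 6051 genes, no member had an adjusted p under 0.05, and 0% of all genes did. UTR2 and SCW10 were the 2 members with an unadjusted p under 0.05, against 11.7% of all genes. The median log2 difference of the 9 members was 0.24, against 0.015 over all genes. It was 0.98 on the values as deposited, where the median of all genes was 0.63. Each difference given as deposited below includes that general shift. The member median was 0.52 with mutant replicate 2 left out and -0.056 with wild-type replicate 2 left out, so no direction is read from it. Differences are mutant minus wild type throughout, on quantile-normalized values with an offset of 1.06, which shrinks the differences of dim genes.

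**Figure D1:**
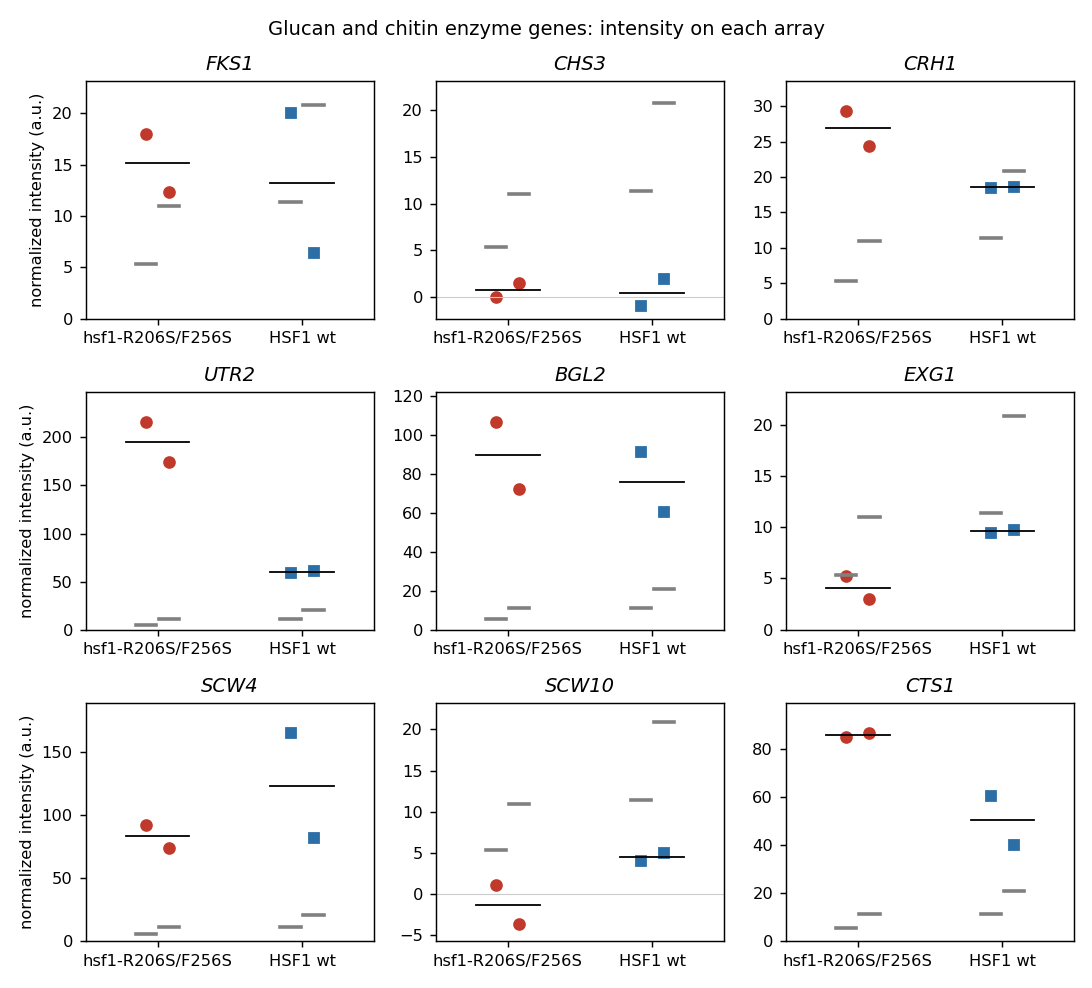
Quantile-normalized intensity (arbitrary units, linear axis with its own range per gene) of the 9 measured genes on each array. Circles are the 2 hsf1-R206S/F256S arrays, squares the 2 HSF1 wt arrays, black lines the group means and grey bars each array's background limit. UTR2, CRH1 and CTS1 show both mutant arrays above both wild-type arrays, and CHS3, EXG1 and SCW10 lie below the background limit on all 4 arrays.

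FKS1 and CHS3 are the synthases of the set. FKS1 (YLR342W) encodes the main catalytic subunit of β-1,3-glucan synthase in growing cells and is the target of echinocandin drugs. Its deposited intensity was 24.4 and 13.3 on the mutant arrays, against 16.3 and 4.36 on the wild-type arrays. The strains overlapped, and the wild-type arrays differed from each other by 2.81-fold after normalization. The log2 difference was 0.35 (SE 0.70, 95% interval -1.68 to 2.38, limma adjusted p = 0.870). It changed sign with the choice of wild-type array, at 1.10 when wild-type replicate 1 was left out and -0.40 when replicate 2, on which FKS1 was below the limit, was left out. As deposited it was 0.98, or 0.35 relative to the median of all genes there. CHS3 (YBR023C) encodes the catalytic subunit of chitin synthase III, which makes most of the wall's chitin. It read 2.40 and 1.84 on the mutant arrays and -1.15 and -0.088 on the wild-type arrays, all below background. No fold is given, since CHS3 has only an upper bound in both strains, and its log2 difference of -0.098 became 1.35 with median scaling.

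UTR2 and CRH1 encode related wall transglycosylases, anchored through a lipid, that attach chitin chains to glucan. UTR2 (YEL040W), also called CRH2, read 189 and 156 deposited units on the mutant arrays, against 54.8 and 50.7 on the wild-type arrays. After normalization it averaged 195 ± 29.2 in the mutant and 60.1 ± 1.57 in the wild type (SD, n = 2 each). All 4 arrays lay above background and the strains did not overlap. Replicate arrays differed by 1.23-fold in the mutant and 1.04-fold in the wild type, while the strain difference was 3.20-fold, or 1.68 on the log2 scale (SE 0.38, 95% interval 0.56 to 2.79 before adjustment). The limma adjusted p was 0.322, and it ran from 0.0952 to 0.584 over the alternatives. An exact permutation test gave p = 0.333, the smallest that 2 arrays against 2 allow. Among the 1235 genes above background on all 4 arrays, 35 had a higher log2 difference than UTR2.

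The size of the UTR2 difference rested on the scaling. It was 0.97 with median scaling, just short of 2-fold. Under the other 11 alternatives it lay between 1.52 and 1.83, and the fold rule held. Both filters on dim genes, the replicate block and leaving out negative values could not change it. On the values as deposited the mutant arrays were higher by 0.63 (log2) at the median of all genes, and UTR2 was 1.05 above that median.

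CRH1 (YGR189C) pointed the same way with a smaller value. It read 38.1 and 26.7 deposited units on the mutant arrays, against 15.0 and 13.9 on the wild-type arrays. The mutant arrays were both higher, and wild-type replicate 2 did not lie above background. Normalized intensity was 26.9 ± 3.53 in the mutant and 18.6 ± 0.087 in the wild type (SD, n = 2 each), a log2 difference of 0.50 (SE 0.38, 95% interval -0.59 to 1.60, limma adjusted p = 0.689). Across the alternatives the value stayed above 0, though some leave it unchanged by construction. It ran from 0.37 without mutant replicate 1 to 1.09 as deposited, or 0.46 relative to the median of all genes there. GAS1, the β-1,3-glucanosyltransferase that elongates glucan side chains, has no value here.

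BGL2, EXG1, SCW4 and SCW10 encode glucanases and glucanase-like proteins of the wall. BGL2 (YGR282C) is an abundant endo-β-1,3-glucanase and glucanosyltransferase. It read 113 and 75.2 deposited units on the mutant arrays, against 85.8 and 49.5 on the wild-type arrays. The strains overlapped after normalization, where replicate arrays differed by 1.47-fold in the mutant and 1.50-fold in the wild type. The log2 difference was 0.24 (SE 0.47, 95% interval -1.15 to 1.62, limma adjusted p = 0.870), and it was -0.23 with median scaling.

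SCW4 (YGR279C) and SCW10 (YMR305C) are paralogs that encode soluble wall proteins resembling glucanases. SCW4 read 97.8 and 76.5 deposited units on the mutant arrays, against 164 and 76.6 on the wild-type arrays. Only wild-type replicate 1 stood apart, being 2.01-fold above wild-type replicate 2 after normalization. The log2 difference of -0.49 (SE 0.54, 95% interval -2.06 to 1.08, limma adjusted p = 0.760) was 0.017 with wild-type replicate 1 left out, -0.99 with replicate 2 left out and -1.09 with median scaling. SCW10 read 3.38 and -3.23 on the mutant arrays and 2.98 and 3.07 on the wild-type arrays. As deposited its strains overlapped and every value was below background, so the normalized log2 difference of -1.88 (SE 0.54, limma adjusted p = 0.370) compares unmeasured levels. It was -0.88 with an offset 4 times as large and -0.92 as deposited, or -1.55 relative to the median of all genes there. Whether the paralogs share signal on these spots was not tested.

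EXG1 (YLR300W) encodes the major secreted exo-β-1,3-glucanase. It read 8.35 and 3.26 deposited units on the mutant arrays, against 7.30 and 7.14 on the wild-type arrays. Mutant replicate 1 was the highest of the 4 deposited values, yet after quantile normalization both mutant values, 5.28 and 2.95, lay below the wild-type values of 9.46 and 9.71. EXG1 lay below the background limit on all 4 arrays and has no fold. Its log2 difference was -1.08 (SE 0.44, limma adjusted p = 0.493). It was -0.38 as deposited, or -1.01 relative to the median of all genes there.

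CTS1 (YLR286C) encodes the endochitinase that cuts the chitin between mother and daughter cells. It read 92.4 and 88.5 deposited units on the mutant arrays, against 56.6 and 31.1 on the wild-type arrays. The strains did not overlap, and the normalized means were 85.6 ± 1.19 in the mutant and 50.2 ± 14.4 in the wild type (SD, n = 2 each). The mutant arrays lay within 1.02-fold of each other and the wild-type arrays within 1.50-fold. The strain difference was 1.72-fold, or 0.79 on the log2 scale (SE 0.42, 95% interval -0.45 to 2.02, limma adjusted p = 0.600). The value was above 0 in all 12 alternatives, some of which leave it unchanged by construction. It ran from 0.37 with median scaling to 1.09 as deposited, or 0.46 relative to the median of all genes there.

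In 3 members, UTR2, CRH1 and CTS1, both normalized mutant values lay above both wild-type values, a pattern that 21.2% of all genes had. EXG1 and SCW10 showed the opposite pattern, which 19.3% of all genes had. FKS1, CHS3, BGL2 and SCW4 overlapped between the strains.

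**Figure D2:**
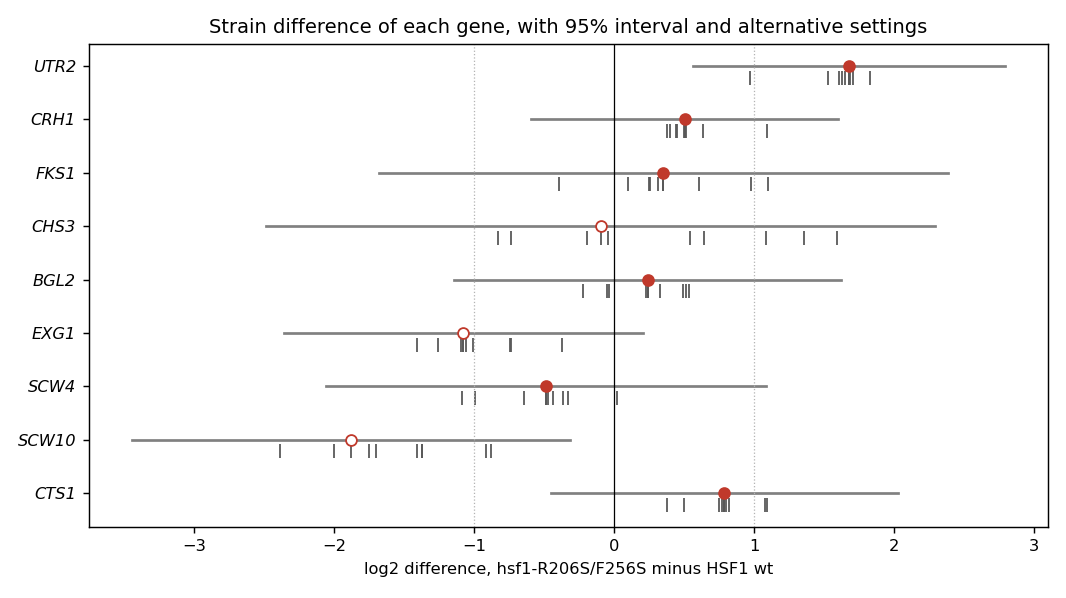
Log2 difference (hsf1-R206S/F256S minus HSF1 wt, 2 arrays each) of the 9 measured genes. Circles are the estimates, open where no array lay above background, horizontal lines the unadjusted 95% intervals from limma, small ticks the values under the alternatives, and dotted lines mark 2-fold. UTR2 at 1.68 has an interval above 0, SCW10 at -1.88 rests on values below background, and the ticks of FKS1, CHS3, BGL2 and SCW4 fall on both sides of 0.

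Of 13 other measured genes of β-glucan synthesis, 2 had a higher and 10 a lower mean in the mutant, against 3060 and 2937 of all 6051 genes. The fold rule was met upward by 2 and downward by 3 of the 13, where 13.5% and 12.8% of all genes met it. None passed the limma threshold, and the median log2 difference was -0.24. The counts and the median moved with which array was left out. With 1 array in a strain, the no-overlap part of the fold rule is easier for every gene to meet. Fold rule counts with an array left out, here and below, are therefore not read as results about the lists. Leaving out wild-type replicate 2 gave 0 upward, 5 downward and a median of -0.85, and leaving out mutant replicate 1 gave 2 upward, 5 downward and a median of -0.51. Leaving out mutant replicate 2 gave 2 upward, 1 downward and a median of 0.15, and leaving out wild-type replicate 1 gave a median of 0. As deposited the median was 0.27, against 0.63 over all genes. Among genes above background it was 0.57, against 0.23 over all such genes. The 2 higher genes both act in β-1,6-glucan synthesis. SKN1, a relative of the glucan synthesis gene KRE6, averaged 62.7 ± 7.80 in the mutant and 25.2 ± 9.93 in the wild type (SD, n = 2 each). Its wild-type replicate 2 lay below background, and its log2 difference was 1.33 (SE 0.48, limma adjusted p = 0.446). KRE9, a secreted protein gene, averaged 138 ± 0.938 in the mutant and 66.9 ± 52.1 in the wild type (SD, n = 2 each). Its log2 difference of 1.28 was 0.41 when wild-type replicate 2 was left out and 2.16 when replicate 1 was. The 3 lower genes were KEG1, KRE1 and BIG1, of which BIG1 was named after its value was seen. KEG1, whose membrane protein binds Kre6, read 7.43 and 43.8 deposited units on the mutant arrays, against 47.9 and 43.7 on the wild-type arrays. Its log2 difference of -1.83 thus rested on mutant replicate 1, and was -0.40 without it and -3.26 without the other mutant array. KRE1, a surface glycoprotein gene, had a log2 difference of -1.07 (SE 0.46, limma adjusted p = 0.525). It lay above background on 1 array of each strain. Its deposited values overlapped between the strains, and the difference was -0.51 as deposited. BIG1 was not above background on any array. GSC2, the alternative glucan synthase subunit that stress induces and that is also known as FKS2, read 50.6 and 61.9 deposited units on the mutant arrays, against 51.1 and 42.1 on the wild-type arrays, a normalized log2 difference of -0.15 (SE 0.40, 95% interval -1.33 to 1.03).

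In chitin synthesis, export and precursor supply, 2 of 15 measured genes were past the fold rule upward and 0 downward, against 13.5% and 12.8% of all genes. None passed the limma threshold, and the median log2 difference was 0.16. The upward count became 5 with either mutant array left out, with 2 downward for replicate 1 and 1 for replicate 2. It became 3 with either wild-type array left out, with 1 downward for replicate 1 and 2 for replicate 2. It was 6 as deposited, where 1700 of all 6051 genes met the rule upward. It was 4 with median scaling, and 1 with negative values left out or under either filter on dim genes. None of these counts is read as a result about the list. The median was 0.77 as deposited, against 0.63 over all genes, and -0.094 with mutant replicate 1 left out. GFA1, the amidotransferase that starts the route to the chitin precursor, read 160 and 114 deposited units on the mutant arrays, against 63.9 and 4.65 on the wild-type arrays. Both mutant arrays were higher, but wild-type replicate 2 was far below wild-type replicate 1 and below its background limit. The log2 difference of 2.61 (SE 1.25, limma adjusted p = 0.560) was 1.05 when wild-type replicate 2 was left out and 4.18 when replicate 1 was. The second gene was SKT5, an activator of Chs3 that was named after its value was seen. It lay above background on 1 mutant array and no wild-type array, and its bound gives no fold. CHS5, part of the complex that carries Chs3 to the surface, differed by -0.069 (SE 0.43, 95% interval -1.33 to 1.19), and GNA1, an acetyltransferase of the precursor route, by -0.17 (SE 0.44, 95% interval -1.45 to 1.12).

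Among 15 other transglycosidase, glucanase and chitinase genes, 1 was past the fold rule in each direction, against 13.5% of all genes upward and 12.8% downward. None passed the limma threshold. The median log2 difference was 0.40. These were GAS2, a spore wall glucanosyltransferase gene with a log2 difference of 1.67, and SUN4, a septation gene at -2.27, both named after their values were seen. Neither lay above background on any array, and the larger offset gave 0.63 and -0.97. The upward count moved under 11 of 12 alternatives and the downward count under 9 of 12. With either mutant array left out there were 3 upward and 2 downward, with wild-type replicate 1 left out 4 and 3, and with wild-type replicate 2 left out 4 and 2. As deposited there were 5 upward, where 1700 of all 6051 genes were, and under either filter on dim genes 0 in each direction. These counts too are not read as results about the list. The median ran from -0.11 with negative values left out to 0.56 as deposited, where the median of all genes was 0.63. UTH1 and SIM1, SUN family genes like SUN4, were bright on all arrays. UTH1 averaged 475 ± 4.94 in the mutant and 361 ± 62.2 in the wild type (SD, n = 2 each), a log2 difference of 0.40 that was -0.91 with median scaling and -0.18 as deposited. SIM1 differed by -0.57 (SE 0.66, limma adjusted p = 0.772), and by 0.13 or -1.28 when mutant replicate 1 or 2 was left out, and its value was -1.19 with median scaling.

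In cell wall integrity signalling, 3 of 15 measured genes were past the fold rule upward and 1 downward, against 13.5% and 12.8% of all genes. None passed the limma threshold, and the median log2 difference was -0.19. The upward count was 1 with wild-type replicate 2 left out and 5 with mutant replicate 2 left out. The downward count was 3 with wild-type replicate 1 left out, 2 with any other array left out, and 0 under either filter on dim genes. The median was above 0 with mutant replicate 1 left out, at 0.14, and with either wild-type array left out, at 0.19 and 0.25. As deposited it was 0.22, against 0.63 over all genes. Under the filters on dim genes it was 0.38 and 0.19, against 0.23 and 0.088 over all genes kept there. MID2, a surface sensor gene, read 26.3 and 18.3 deposited units on the mutant arrays, against 11.1 and -3.11 on the wild-type arrays. BCK1, the kinase that starts the mitogen-activated cascade, read 32.5 and 34.7 on the mutant arrays, against 14.8 and 1.63 on the wild-type arrays. In both genes wild-type replicate 2 was the lowest array and lay below its background limit. The log2 difference of MID2 was 2.26 (limma adjusted p = 0.670), or 0.34 without that array, and that of BCK1 was 1.63 (limma adjusted p = 0.597), or 0.59 without it. MKK2, a kinase below Bck1, was the third higher gene at 2.01 and WSC2, another sensor gene, the 1 lower gene at -1.59. Both were named after their values were seen, and neither was above background on any array, with 0.84 and -0.92 under the larger offset. RLM1, the transcription factor that Slt2 activates, averaged 350 ± 124.0 in the mutant and 462 ± 4.41 in the wild type (SD, n = 2 each), a log2 difference of -0.45 that was -1.76 with median scaling. ROM1, an activator of Rho1, differed by 0.57 (SE 0.59), and by -0.63 with median scaling.

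**Figure D3:**
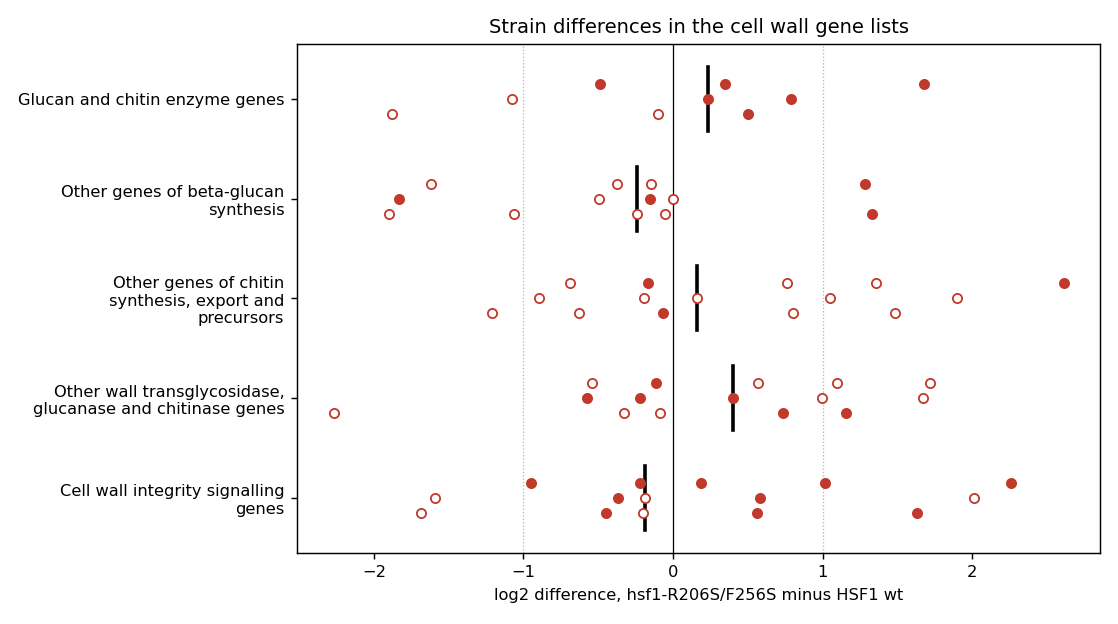
Log2 difference (hsf1-R206S/F256S minus HSF1 wt, 2 arrays each) of every measured gene in the wall enzyme set and in 4 further cell wall lists. Filled circles are genes that exceeded the background limit on both mutant or both wild-type arrays, open circles the others, thick vertical lines the list medians, and dotted lines mark 2-fold. The list medians lie between -0.24 and 0.40.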

How the data were processed

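The deposited spot intensities are linear, per the values, with 1 column per array. Per the labels, oligo(dT)-primed cDNA of total RNA was labelled with 33P. Software, background method and scaling by the authors are not given in the sources used. Negative values occur on every array, and the array means lie between 32.4 and 32.6. GEO's platform annotation, which can be old, gave 1 symbol for 5523 of 6084 spots, several for 0 and none for 561. All 5523 matched a current gene table and 0 changed.

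The array quartiles differed by more than 5%, so quantile normalization was applied (limma 3.58.1, R 4.3.3). Negatives were set to 0, the 5th percentile of positive values (1.06) was added, and log2 taken. Spots of a gene were averaged. The noise SD of an array is the median size of its negative values divided by the normal quartile. Where a strain had no array above background, its level was replaced per array by the higher of the limit and the value, giving "at least" folds. limma (lmFit, eBayes, two-sided, no replicate block) was fitted on all 4 arrays and all genes, with Benjamini-Hochberg adjustment and a threshold of 0.05. It has 2 residual and 1.54 prior degrees of freedom. The pipeline was tested on simulated data in which only brighter spots were given a change, so that test does not cover changes in dim genes. The number of arrays limits the precision.

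The members and lists come from general knowledge of yeast and were chosen with earlier results of these data known. Named are all members, HSF1, HSP82 and SSA4, and from each further list up to 4 genes past the fold rule and above background on both arrays of a strain, plus up to 2 with the highest mean level. Same-numbered arrays did not deviate together (r = 0.020 over 6051 genes). Planned motif searches and protein comparisons were not run, since no sequences were used here, and 1 further planned list is not reported here.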

Additional observations from a re-analysis of the deposited data

How the results depend on the processing

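Each result was recomputed under 12 alternatives: median scaling, values as deposited, cyclic loess, a larger offset, negative values left out, genes above background alone, genes bright by their mean alone, the replicate number as a block, and each array left out. Of 102 member differences, 92 kept their direction and 0 passed an adjusted p of 0.05. CHS3, EXG1 and SCW10 have none under the filters on dim genes. The replicate block and these filters leave a kept gene's difference unchanged by construction. Leaving out negative values does the same for genes without one. The 92 thus include settings that could not reverse a direction. With median scaling CHS3 was 1.35, BGL2 -0.23, UTH1 -0.91 and ROM1 -0.63. As deposited, where the median of all genes was 0.63, CHS3 was 1.59, UTH1 -0.18, GSC2 0.27, CHS5 0.38 and GNA1 0.47. With cyclic loess CHS3 was 1.09. Leaving out 1 array gave -0.40 to 1.10 for FKS1, -0.83 to 0.64 for CHS3, -0.056 to 0.53 for BGL2, -0.99 to 0.017 for SCW4, -0.39 to 0.083 for GSC2, -0.34 to 0.20 for CHS5, -0.50 to 0.16 for GNA1, -1.28 to 0.13 for SIM1 and -0.0485 to 1.18 for ROM1. Members past the fold rule upward numbered 4 as deposited, 2 with cyclic loess and 1 to 3 without 1 array. The 1 under median scaling was CHS3, not UTR2. Members past it downward numbered 3 with median scaling, where SCW4 joined at -1.09, 0 as deposited, 0 with the larger offset, 0 under each filter on dim genes, 1 with negative values left out and 1 to 2 without 1 array. The zeros under the filters follow from their construction, since EXG1 and SCW10 are dim. The cause of the other changes was not tested. Over all genes, 0 passed the adjusted threshold without a filter, 1 above background and 12 bright by their mean. Upward calls over all genes ran from 283 to 1700 and downward calls from 220 to 1405, with 1700 upward and 338 downward as deposited, against 818 and 772 after quantile normalization. The replicate block cannot change the differences or the fold rule counts, and with it 0 members passed by adjusted p. The number of arrays and the noise near background limit CHS3, EXG1 and SCW10.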
